A study of Mus musculus with 3 samples.

Results

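The mitochondrial ribosomal protein genes are the 78 protein-coding genes of GENCODE M21 whose symbol is Mrps or Mrpl followed by a number and at most 1 letter, taken from 55536 annotated genes. Of these, 29 carry an Mrps symbol and 49 an Mrpl symbol. They were chosen by name alone, with no measured value, and lie on 17 chromosomes, with 11 on chromosome 11 and 8 on chromosome 17. Their RNA was measured in 3 libraries of total RNA, depleted of ribosomal RNA, from the cytosolic fraction of C57BL/6J bone-marrow-derived macrophages, primary phagocytes grown from marrow progenitors. All cells had received 100 ng/ml lipid A, the TLR4-binding anchor of bacterial lipopolysaccharide, for 120 min. There is 1 group, without untreated cells, so the values are levels and their spread, and a response to lipid A was not measured. The 3 libraries are labelled as biological replicates but share a donor identifier, and age and sex were not collected. Biological and technical parts of the spread cannot be told apart.

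The mitochondrial ribosome, or mitoribosome, makes the few proteins encoded in mitochondrial DNA, which are core subunits of the respiratory chain and ATP synthase. Its ribosomal RNAs come from the mitochondrial genome, but its proteins are encoded in the nucleus, translated in the cytosol and imported. Some of these proteins have counterparts in bacterial ribosomes and others were added in the mitochondrial lineage. Macrophages stimulated through TLR4 are known to shift their energy metabolism from respiration towards glycolysis.

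Promoters are shown for 4 members: Mrps21 and Mrpl52, which had the highest levels, and Mrps12 and Mrpl32, which share a start region with a neighbouring gene. Each run holds 250 bases before the RefSeq start and 30 after it (GRCm38.p6, the build of mm10), 5′ to 3′ on the gene's strand. Capitals mark the letters CCGGAAG (an ETS-type motif), GCATGCG (NRF1) and AAGATGG (YY1), or their reverse complements. The positions are chr3:95871485-95871764 (minus strand) for Mrps21, chr14:54426659-54426938 (plus strand) for Mrpl52, chr7:28741792-28742071 (minus strand) for Mrps12 and chr13:14613008-14613287 (minus strand) for Mrpl32.
Mrps21: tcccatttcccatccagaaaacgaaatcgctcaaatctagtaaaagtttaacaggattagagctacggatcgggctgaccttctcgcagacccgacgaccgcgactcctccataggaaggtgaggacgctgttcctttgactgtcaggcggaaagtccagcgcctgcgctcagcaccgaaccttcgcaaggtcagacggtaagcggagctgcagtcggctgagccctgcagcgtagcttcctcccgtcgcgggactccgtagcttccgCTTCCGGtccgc
Mrpl52: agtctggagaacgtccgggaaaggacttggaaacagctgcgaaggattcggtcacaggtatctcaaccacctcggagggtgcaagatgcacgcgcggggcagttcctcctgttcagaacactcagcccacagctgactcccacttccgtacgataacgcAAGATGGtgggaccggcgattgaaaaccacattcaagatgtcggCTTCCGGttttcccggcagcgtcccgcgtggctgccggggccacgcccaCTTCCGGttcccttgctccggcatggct
Mrps12: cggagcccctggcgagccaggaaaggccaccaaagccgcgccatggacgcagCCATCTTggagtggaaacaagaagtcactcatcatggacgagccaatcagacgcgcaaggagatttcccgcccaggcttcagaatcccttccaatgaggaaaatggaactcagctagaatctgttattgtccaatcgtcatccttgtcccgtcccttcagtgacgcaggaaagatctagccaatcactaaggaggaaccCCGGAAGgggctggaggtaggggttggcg
Mrpl32: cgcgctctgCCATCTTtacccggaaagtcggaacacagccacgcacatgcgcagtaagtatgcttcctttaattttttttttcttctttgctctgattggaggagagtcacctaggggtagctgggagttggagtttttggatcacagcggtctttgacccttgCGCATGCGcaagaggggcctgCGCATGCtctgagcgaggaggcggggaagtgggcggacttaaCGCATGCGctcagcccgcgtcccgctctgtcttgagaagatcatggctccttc
Factors of the ETS, NRF1 and YY1 families are known regulators of nuclear genes for mitochondrial proteins. Mrpl52 held 2 ETS matches and 1 YY1 match, Mrps12 held 1 of each, and Mrps21 held 1 ETS match just after its start. Mrpl32 held 5 NRF1 matches, of which 2 pairs overlap on opposite strands, and 1 YY1 match. The YY1 matches of Mrps12 and Mrpl32 begin at -198 and -241 from the RefSeq start. Both lie past the annotated starts of the neighbours Sars2 (chr7:28741992) and Psma2 (chr13:14613240), and so inside those genes.

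RefSeq promoter windows of 250 bases before to 50 after the start were found for 69 of the 78 members. The ETS letters occurred in 26 of them, or 37.7%, beside 23.2% of 6638 detected protein-coding genes and 9.93% of all 27025 genes in the table. The YY1 letters occurred in 18.8% of the members, beside 9.28% and 7.28%. The NRF1 letters occurred in 11.6%, beside 7.98% and 4.01%. At least 1 of these 3 motifs was present in 38 members, or 55.1%, beside 35.5% of detected protein-coding genes. The general letters CCAAT were found in 39.1% of members and 42.3% of detected protein-coding genes, and TATAAA in 7.25% and 8.5%. Both strands were searched, and the 7 letters of the ETS motif contain the 5 letters GGAAG, which were found in 81.2% and 81.1%. These are matches of letters, not measured binding. Mean GC content was 59.0% in member promoters and 61.1% in those of detected protein-coding genes.

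The gene tables held 30948628, 113924708 and 59635913 expected counts in annotated genes for replicates 1, 2 and 3. All 8 macrophage markers were detected, at 14.5 to 4039 TPM, a unit that divides counts by transcript length and gives each library the same total. Of 15 markers of T, B and natural killer cells, neutrophils and fibroblasts, only Cd4 was detected, at 18.15 TPM, while the T cell markers Cd3e, Cd3g and Trac were at or below 0.0133 TPM. In a bulk sample, fewer cells of a type and less RNA per cell cannot be told apart.

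Mitoribosome genes were present in the cytosolic RNA at low to moderate TPM. Nuclear-encoded protein-coding genes summed to a mean of 222014 TPM, and the rest of each library's total lay in other RNA. With TPM rescaled to these genes alone, the member median was 24.5. With detection set at 1 TPM or more in every library, 76 of 78 members were detected, beside 8281 of 22015 nuclear-encoded protein-coding genes. The second quantification is a separate estimate from the same libraries, whose mean TPM is lower for all 78 members. There 61 of 78 members were detected, and no count over other genes is given beside it. The median level was 5.43 TPM over all 78 members. It was 6.84 TPM for the 8281 detected nuclear-encoded protein-coding genes and 0.113 TPM for all 22015. The median member was at 5.30, 5.645 and 5.77 TPM in replicates 1, 2 and 3. Of the members, 15 had a mean of 10 TPM or more and 7 a mean under 2 TPM. Together the 78 genes summed to 589 ± 20.3 TPM (SD, n = 3), which was 0.266% of the TPM of nuclear-encoded protein-coding genes. Their counts per library ran from 70 to 719 in replicate 1, from 321 to 2832 in replicate 2 and from 153 to 1363 in replicate 3.

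Mrps21 (ENSMUSG00000054312.6, mm10 chromosome 3, 95862634 to 95871519, minus strand), the bS21m protein of the small subunit, had the highest level, at 57.83, 51.24 and 53.32 TPM in replicates 1, 2 and 3 (mean 54.13 ± 3.37, SD, n = 3). Mrpl52 (ENSMUSG00000010406.12, chromosome 14, 54426909 to 54429756, plus strand), a large-subunit protein with no bacterial counterpart, came next at 32.99, 39.05 and 52.12 TPM (41.4 ± 9.78). Within each library Mrps21 lay above Mrpl52. Across libraries the ranges of this pair overlapped, since replicate 3 of Mrpl52 lay above replicate 2 of Mrps21. Mrpl33, the bL33m protein, was at 29.22, 25.63 and 28.79 TPM (27.88 ± 1.96), below every value of Mrpl52. Then came Mrpl54 at 16.2 ± 1.85, Mrpl27 at 15.2 ± 0.977 and Mrpl30 at 14.96 ± 0.893 TPM, whose ranges overlapped. Mrps18c, Mrps15, Mrpl20 and Mrpl42 followed at means of 13.8, 13.2, 13.2 and 12.48 TPM.

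At the lower end stood Mrpl19, the bL19m protein at the interface of the subunits, with 1.05, 0.98 and 0.91 TPM. Mrpl47, the uL29m protein near the exit of the peptide tunnel, had 0.93, 1.18 and 1.48 TPM. These are the 2 members that missed the detection level, each by values close to it, and each had counts of 92.98 or more in every library. Mrps27, a small-subunit protein of the mitochondrial lineage, was at 1.17 ± 0.07 TPM (SD, n = 3), and Mrps31 was at 1.44 ± 0.07. Mrps35, Mrpl50, Mrpl1 and Mrps30 completed the 8 lowest, with means of 1.74, 1.88, 1.88 and 2.11 TPM.

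**Figure D1:**
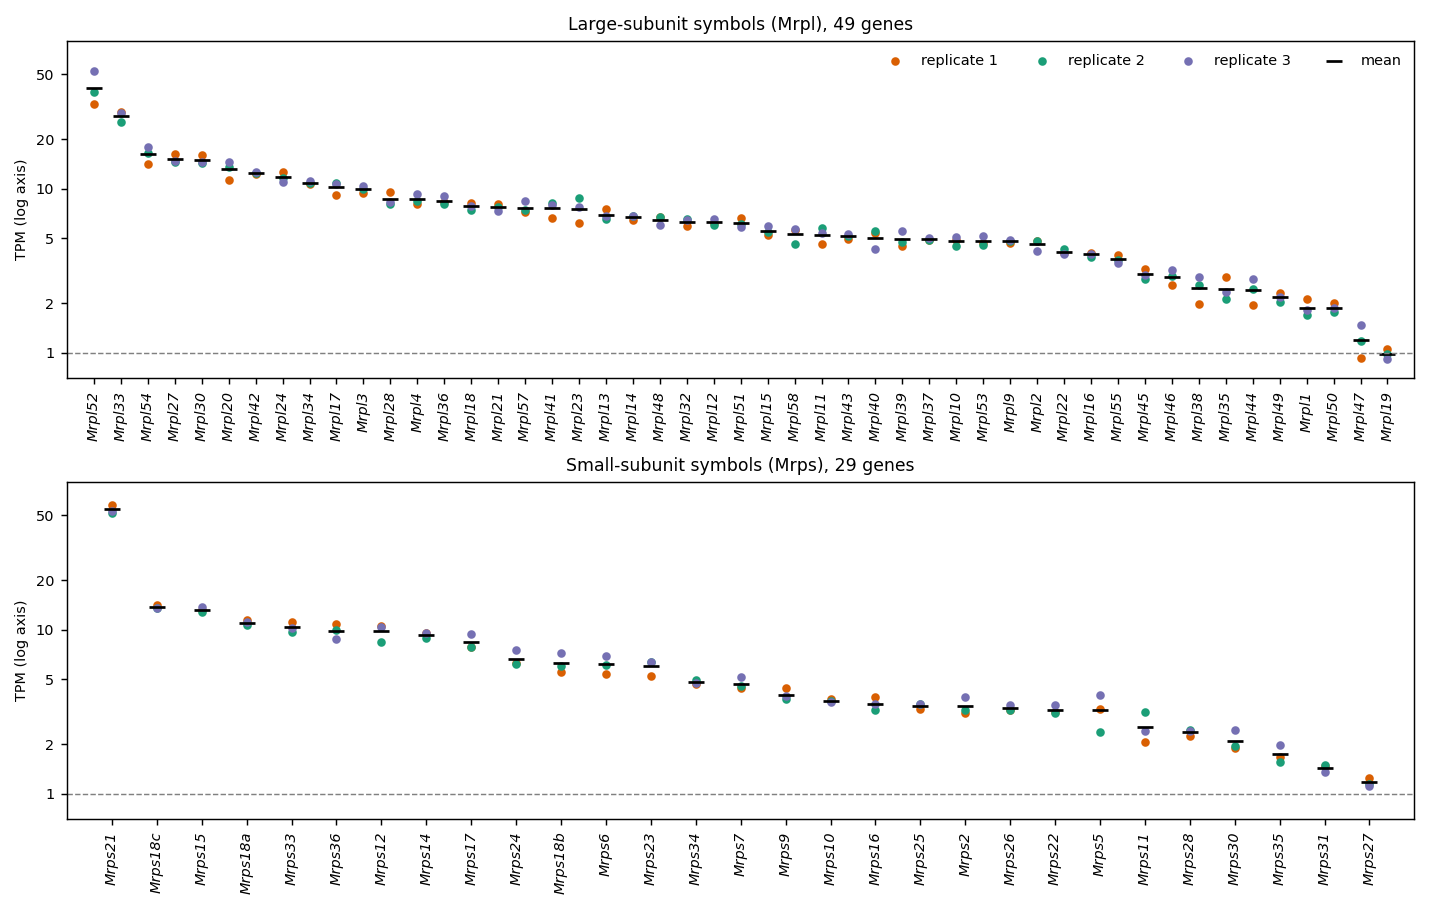
TPM of each member in each library (points, coloured by replicate) with the mean (bar), on a log axis, for Mrpl symbols above and Mrps symbols below; the dashed line marks 1 TPM. Mrps21, Mrpl52 and Mrpl33 stand above the rest, and Mrpl19 and Mrpl47 reach below the line.

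Members with a named role in translation lay between these ends. Mrps12, the uS12m protein of the decoding centre, was at 10.58, 8.40 and 10.41 TPM, with replicate 2 the lowest. Mrpl12 and Mrpl10 form the stalk that binds translation factors, and were at 6.25 ± 0.308 and 4.80 ± 0.316 TPM (SD, n = 3). Mrpl58, a peptidyl-tRNA hydrolase built into the large subunit, was at 5.31 ± 0.586 TPM. Mrpl45, which lies at the tunnel exit facing the inner membrane, was at 3.02 ± 0.212 TPM.

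Symbols do not always give the place of the protein. Of the 3 relatives of the bacterial S18 protein, Mrps18c is the small-subunit bS18m, Mrps18b is a second small-subunit protein, mS40, and Mrps18a sits in the large subunit as mL66. Their levels were 13.8 ± 0.391, 6.27 ± 0.865 and 11.05 ± 0.356 TPM (SD, n = 3), and the ranges of the 3 genes did not overlap. Mrps30, also a large-subunit protein (mL65), was at 1.91, 1.96 and 2.45 TPM. Mrps36 is a subunit of the 2-oxoglutarate dehydrogenase complex and no mitoribosome protein. It was at 10.78, 10.02 and 8.74 TPM, beside 17.3 to 19.5 TPM for the means of the other subunit genes Ogdh, Dlst and Dld.

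The median of small-subunit genes lay below that of large-subunit genes, and that of genes of mitochondria-specific proteins below that of genes with a bacterial counterpart. By symbol, the small-subunit median minus the large-subunit median was -0.35, -0.34 and -0.27 on the log2(TPM + 1) scale in replicates 1, 2 and 3 (-0.32 ± 0.04, SD, n = 3). Between list means in place of medians it was -0.17 ± 0.02. By place in the mitoribosome, with 26 small-subunit and 51 large-subunit genes, it was -0.39 ± 0.05. Median levels were 4.36 TPM for small-subunit genes by place and 6.19 TPM for large-subunit genes. The difference of 31 mitochondria-specific from 46 bacterial-type genes was -0.36 ± 0.02, with medians of 4.91 and 6.475 TPM. The 31 include Mrps18a (mL66) and Mrps18b (mS40), at means of 11.05 and 6.27 TPM, although both are relatives of the bacterial S18 protein. The SD covers the spread between libraries over the same genes, not the spread among genes, and the smallest p that the exact sign test allows with 3 libraries is 0.25. Among genes the lists overlapped widely: the quartiles of small-subunit genes by place were 3.26 and 7.97 TPM and those of large-subunit genes 4.04 and 8.63. The mitochondria-specific genes were also longer, with a median effective length of 1070 nucleotides against 776, and their median count was 584 against 671.

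Levels fell with transcript length among the members. Effective length is the transcript length from which a fragment can start, and TPM divides by it. Across the 78 members its Spearman correlation with TPM was -0.72, and with expected counts 0.045, as a description across genes that share these libraries. Across the 8281 detected protein-coding genes the same correlations were -0.114 and 0.387. Members under 500 nucleotides had a median of 10.4 TPM, those from 500 to 1000 had 6.65 and longer ones 3.32. Detected protein-coding genes had medians of 18.3, 9.30 and 6.46 TPM in the same classes (the longest class up to 10000). Mean TPM spanned 55.2-fold among members, while counts in replicate 2, the deepest library, spanned 8.82-fold. Mrps21 and Mrpl52 had effective lengths of 229 and 207 nucleotides and Mrpl19 one of 4739.

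**Figure D2:**
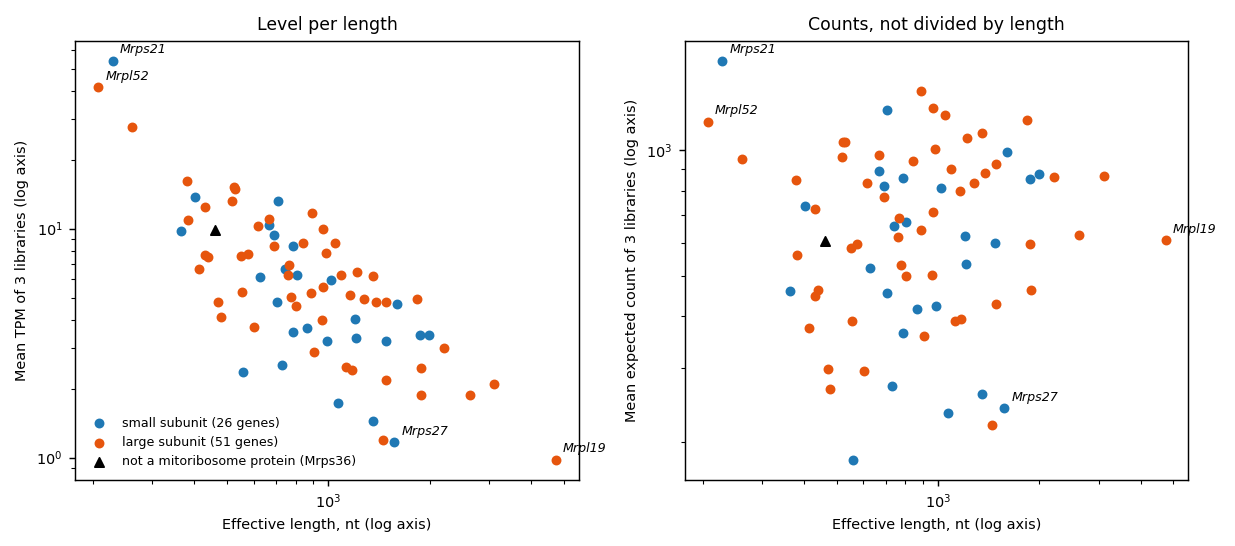
Mean TPM (left) and mean expected count (right) of each member against effective length in nucleotides, all on log axes; colour gives the subunit and the triangle is Mrps36. TPM falls with length (Spearman -0.72) and counts do not (0.045).

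Cytosolic ribosomal proteins, the counterpart set that builds the ribosomes outside mitochondria, were far more abundant. Detection was met by 77 of 80 such genes, and their median was 175 TPM. The median difference between the cytosolic and mitochondrial sets was 4.84, 4.77 and 4.57 on the log2(TPM + 1) scale in replicates 1, 2 and 3, or 4.73 ± 0.14 (SD, n = 3), a 26.5-fold difference on that scale. In summed TPM the cytosolic set stood 30.96, 28.3 and 24.7 times above the members. The cytosolic genes were also shorter, with a median effective length of 487 nucleotides against 824. Their median count, not divided by length, was 11886 against 650. Rpl41, Rps29 and Rplp1 were highest, at 733, 632 and 593 TPM, and Rpl3l and Rpl10l lowest, at 0.0167 TPM and listed at 0. No mitoribosome gene reached the cytosolic median.

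Genes of proteins that work with the mitoribosome were mostly lower than its own. All 5 mitoribosome proteins with other symbols were detected: Chchd1 at 12.1 TPM, Aurkaip1 at 11.99, Dap3 at 5.99, Ptcd3 at 2.37 and Gadd45gip1 at 1.23. The median of 12 mitochondrial translation factors was 1.19 TPM, and 7 of them passed the detection level. The elongation factors Tufm, Gfm1 and the recycling factor Gfm2 led at 7.68, 4.94 and 3.11 TPM, and Taco1 and Mtfmt, which formylates the initiator tRNA, were lowest at 0.56 and 0.493. For 25 assembly and rRNA modification genes the median was 1.21 TPM and 14 passed, led by Rbfa, Mpv17l2 and Dhx30 at 7.50, 4.83 and 4.56 and with Mettl15 and Ybey lowest at 0.237 and 0.137. Of 6 mitochondrial transcription genes 3 were detected, with Tfam, Tfb2m and Tefm at 1.62, 1.41 and 1.35 TPM and Mterf1a and Mterf1b lowest at 0.477 and 0.10. The translation factor, assembly and transcription lists were also longer, with median effective lengths of 1759, 1543 and 1486 nucleotides against 824 for members. Their median counts, not divided by length, were 322, 219 and 180 against 650.

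**Figure D3:**
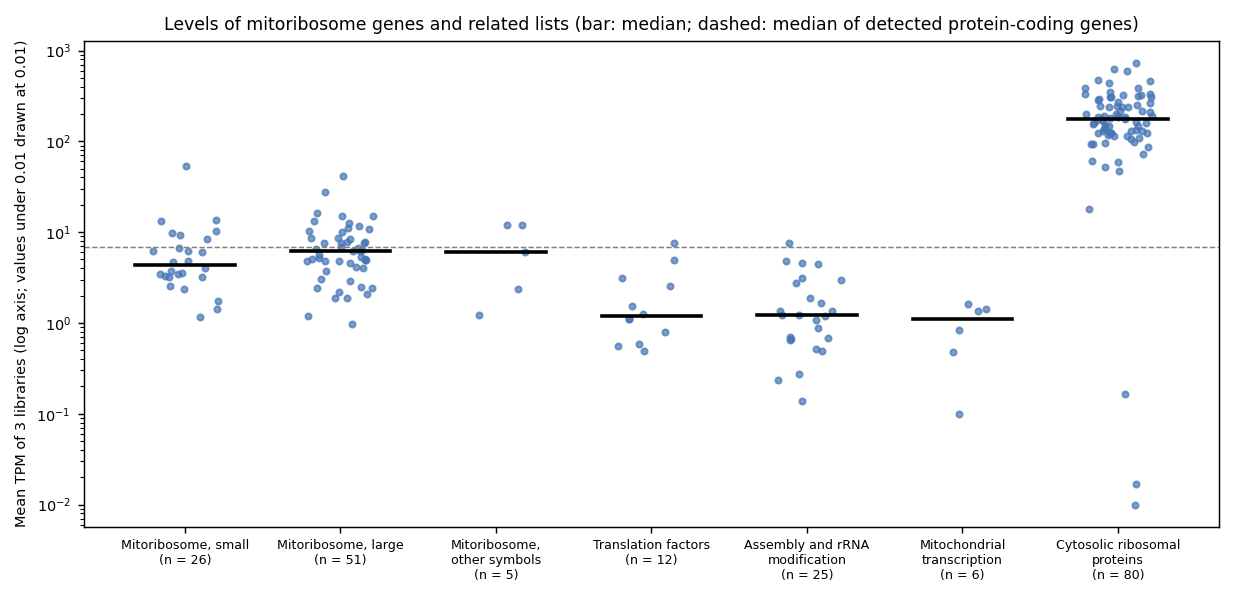
Mean TPM of each gene (points) in the 2 mitoribosome subunits and in related lists, on a log axis, with the median of each list (bar) and of detected protein-coding genes (dashed, 6.84 TPM). Cytosolic ribosomal proteins sit near 175 TPM, mitoribosome genes between 4.36 and 6.19 and their factors near 1.2.

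Most members varied little between the replicates. The highest library was a median of 1.14 times the lowest in TPM, and 1.18 times in CPM, counts scaled by library size with TMM factors and not divided by length, beside 1.16 for detected protein-coding genes. In CPM the ratio ran from 1.01 for Mrps25 to 1.85 for Mrps11, and 6 members (7.69%) reached 1.5, beside 5.89% of detected protein-coding genes. In TPM the 8 detected members with the highest ratio were Mrps5 at 1.66, Mrpl52 at 1.58, Mrps11 at 1.52, Mrpl38 at 1.46, Mrpl44 at 1.44, Mrpl23 at 1.42, Mrpl35 at 1.36 and Mrps18b at 1.30. Mrps5 was at 3.29, 2.39 and 3.97 TPM, but in CPM its ratio was 1.09 and it did not pass the dispersion test. Mrps11, the uS11m protein, was at 2.07, 3.15 and 2.42 TPM and passed it, with replicate 1 the lowest.

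A Poisson dispersion test with Benjamini-Hochberg adjustment over all genes tested asked which genes varied beyond counting error, at a threshold of 0.05. It called 42 of 78 members, or 53.8%, beside 62.1% of all genes tested and 72.8% of detected nuclear-encoded protein-coding genes. The members' median total count was 1950 and that of detected protein-coding genes 6148, and deeper counts show smaller variation. In CPM replicate 1 was the lowest library for 36 of the 42, and none was highest there. It was also the lowest for 60 of all 78 members, called or not. No such share over other genes is given, so this is not shown to be a trait of the members. Without replicate 1 the test called 19 members (24.4%) beside 45.3% of all genes, without replicate 2 it called 23 (29.5%) beside 37.9%, and without replicate 3 it called 42 (53.8%) beside 49.5%, so the members lay below the overall share in the first 2 and above it in the last. In the second quantification it called 58 members (74.4%) beside 74.9%. A member that was not called is not shown to be free of variation. Mrpl52 was called with an adjusted p of 2.17e-19 and Mrps11 with 1.32e-08 in this dispersion test. Without replicate 2 the adjusted p of Mrps11 was 0.101. Mrpl52, Mrpl41, Mrpl48, Mrpl11 and Mrps30 were called in every alternative tried, of which Mrpl41, Mrpl48 and Mrpl11 were singled out after their values were seen. Mrpl41, at 6.65, 8.15 and 8 TPM, had an adjusted p of 1.67e-06 in the dispersion test, with replicate 1 the lowest.

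The library in which the members were lowest depended on the scaling. In CPM with TMM factors it was replicate 1, where 69 of the 76 detected members lay below their own mean. Their median there was -0.12 on the log2 scale, while all detected protein-coding genes had a median of -0.015. In the deposited TPM 42 of 76 lay below their mean in replicate 1 and 47 in replicate 2, and the members' medians there were -0.02 and -0.036, so replicate 2 was the lowest, while all genes had a median of 0.098 in replicate 1. In the second quantification 5 of 76 lay below their mean in replicate 1, and the medians of members and of all genes lay above 0, at 0.20 and 0.29. Replicate 3 was the lowest there, with 76 of 76 members below their mean and a member median of -0.35. All genes in that quantification moved by 0.29, 0.07 and -0.36 in replicates 1, 2 and 3. Relative to all detected protein-coding genes, replicate 1 was lower by 0.109 in CPM, 0.117 in TPM and 0.085 in the second quantification. Fragment length moved with the libraries: transcript length minus effective length was 234, 213 and 226 nucleotides in replicates 1, 2 and 3. In CPM and within length classes, chosen after the values were seen, members under 500 nucleotides differed from other genes in replicate 1 by -0.05, those from 500 to 1000 by -0.03 and longer ones by -0.11. The part of fragment length and depth in this shift was not tested.

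The RNA components of the mitoribosome spread widely between the libraries. The 12S and 16S ribosomal RNAs, mt-Rnr1 and mt-Rnr2, are made inside mitochondria. mt-Rnr1 was at 35.34, 3.07 and 11.47 TPM and mt-Rnr2 at 22.68, 1.02 and 4.98 TPM in replicates 1, 2 and 3, so both were lowest in replicate 2. These libraries were depleted of ribosomal RNA and made from a cytosolic fraction, and the part of either step in this spread was not tested.

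**Figure D4:**
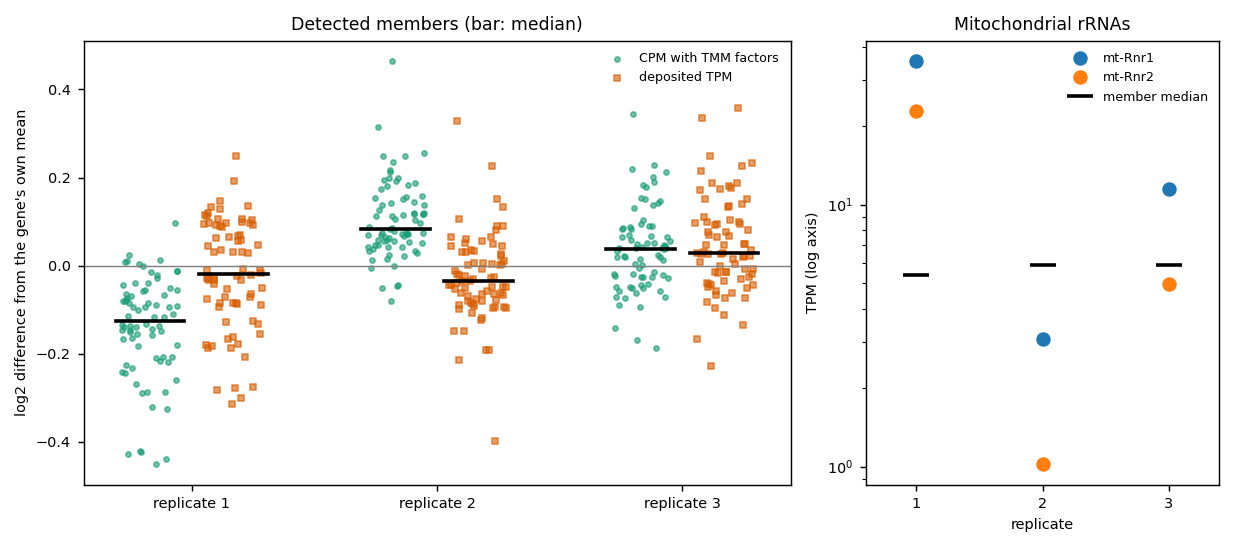
Left, log2 difference of each detected member from its own mean over 3 libraries, in CPM with TMM factors (circles) and deposited TPM (squares), with medians as bars; right, TPM of the mitochondrial ribosomal RNAs (points) and the median of detected members (bars) on a log axis. Replicate 1 is lowest in CPM (median -0.12) and near 0 in TPM (-0.02), while mt-Rnr1 runs from 3.07 to 35.34 TPM.

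Part of the member RNA was assigned to transcripts that GENCODE does not annotate as coding. Of 343 annotated transcripts, 92 reached 1 TPM in every library. Coding transcripts held 87.2% ± 0.748 of member TPM (SD, n = 3), beside 92.6% over detected protein-coding genes. Nonsense-mediated decay (NMD) transcripts, which carry a premature stop, held 5.44% beside 1.57%, retained-intron transcripts 3.75% beside 3.41% and processed transcripts 3.61% beside 2.37%. For 13 members (16.7%) the highest transcript was one of these, beside 4.50% of detected protein-coding genes. In the second quantification 12 of the 13 were again not coding, with the exception of Mrpl13.

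Mrps14, the uS14m protein, had 8.03, 8.02 and 8.23 TPM in the NMD transcript Mrps14-201, or 86.8% ± 2.95 of its TPM (SD, n = 3), and 0.96 TPM in its highest coding transcript. Mrpl57 had 94.2% ± 0.419 in the retained-intron transcript Mrpl57-202. Mrps26 and Mrps25 had 88.3% and 70.1% in retained-intron transcripts. Mrpl32, Mrpl13, Mrpl35 and Mrpl3 had 76.4%, 54.4%, 53.6% and 43.0% in NMD transcripts. Mrps16, Mrps35, Mrpl15, Mrpl51 and the undetected Mrpl47 had 88.0%, 77.5%, 60.4%, 53.2% and 59.1% in processed transcripts. In 12 of the 13 the non-coding transcript was shorter than the highest coding one, with medians of 707 and 3013 nucleotides. The full reading frame of the coding transcript was contained in the non-coding one for 1 of 13, Mrpl57. Short reads assigned among overlapping transcripts do not show whole molecules.

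**Figure D5:**
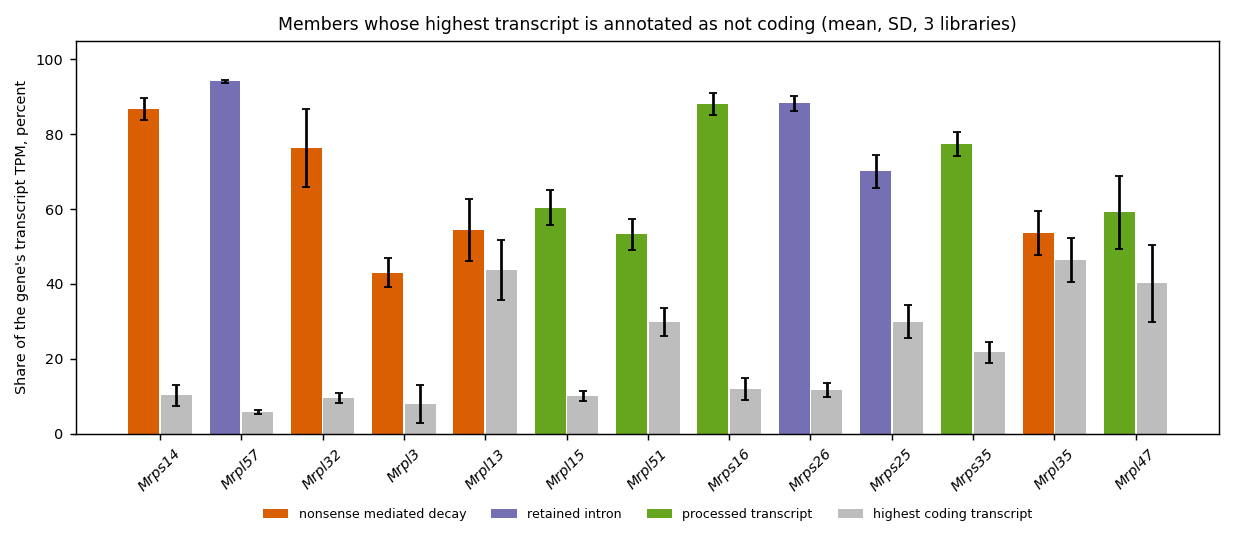
Percent of each gene's transcript TPM in its highest, non-coding transcript (coloured by annotated type) and in its highest coding transcript (grey), as mean and SD of 3 libraries, for the 13 members. Mrpl57 (94.2%) and Mrps26 (88.3%) have the largest shares among them.

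The 2 quantifications gave the members close to a common ratio, with few exceptions. The median member stood at 0.388 times its first TPM in the second, where the members' median level was 2.22 TPM, and 70 of 78 lay within 1.2-fold of that ratio. Relative to it, Mrpl23 was at 0.248, Mrps5 at 1.42, Mrpl35 at 1.36, Mrps35 at 1.29, Mrpl51 at 1.27 and Mrpl2 at 1.26. The undetected Mrpl19 was at 1.90. Mrpl23, the uL23m protein (chromosome 7, 142532686 to 142540747), has a processed pseudogene copy, Mrpl23-ps1 (mm10 chromosome 2, 74591330 to 74591909). Mrpl23 was at 6.16, 8.73 and 7.71 TPM and the copy at 9.52, 6.49 and 9.33 TPM, and their sum was 15.98 ± 0.946 TPM (SD, n = 3). Mrpl23 took 47.3% of this sum in the first quantification and 11.1% in the second, so its own level is uncertain.

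Many members start next to another gene. A protein-coding gene on the opposite strand started within 1000 bp in divergent orientation for 18 members (23.1%), beside 11.1% of detected and 6.76% of all protein-coding genes. Of the 18 partners 10 were detected, and 12 members had the higher mean TPM of the pair. Mrps12 starts 172 bp from Sars2, the mitochondrial seryl-tRNA synthetase, and stood at 9.80 TPM against 0.927. Mrpl32 starts 75 bp from the proteasome gene Psma2, at 6.30 against 14.3 TPM. These distances use GENCODE gene starts. The promoter run of Mrpl32 is set on a RefSeq start that lies further into the gene than its GENCODE start (chr13:14613165). Mrpl49 starts 59 bp from Fau, which encodes a cytosolic ribosomal protein, at 2.18 against 419 TPM. Mrpl46 and Mrps11 are both members and overlap by 413 bp on opposite strands. They stood at 2.90 ± 0.301 and 2.55 ± 0.551 TPM (SD, n = 3). In all, 36 members overlap an annotated gene on the opposite strand, 13 of them a detected one. No share over other genes is given for such overlaps, so they are not shown to be a trait of the members. No source used here states the strand setting of the counting, so reads of such pairs cannot be told apart with certainty.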

How the data were processed

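Total RNA of 3 libraries of 1 group was analysed from gene and transcript tables. Per the file headers, the authors deposited expected counts (model estimates that need not be whole), TPM and FPKM in the column layout of RSEM, and estimated counts and TPM per transcript in that of kallisto, called the second quantification here and summed per gene. Per the labels, the build is mm10, 1 µg of RNA was used and the size range was 250 to 400 bp; the sources used here name no aligner and no tool version. TPM inflates RNAs near the fragment length and keeps no depth. Rows outside annotated genes held 0.655%, 0.0937% and 0.0961% of expected counts in replicates 1, 2 and 3 and were left out.

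Expected counts were rounded. Genes with at least 10 counts on average entered a Poisson dispersion test (chi-square, 2 degrees of freedom, TMM-scaled library sizes, edgeR 4.0.16 in R 4.3.3), with Benjamini-Hochberg adjustment over all 14037 genes at 0.05. The test was checked only on simulated Poisson counts, the distribution that it assumes. Such counts carry no error from assigning reads to genes, so the check does not cover that error. Other values used Python 3.11.15, pandas 2.3.3 and scipy 1.17.1. Levels are means and SDs over 3 libraries, and fold differences of lists are on the log2(TPM + 1) scale, which understates low genes. Protein names, subunit places and related lists were assigned by hand from general knowledge.

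The members and lists were chosen with earlier results of these data known. Genes were named by rule: the 10 highest and 8 lowest members, those not detected, the 8 with the highest ratio between libraries, the 6 with the largest fold between quantifications (taken relative to the median ratio), those whose highest transcript is not coding, members of known site or misleading symbol, and the 3 highest and 2 lowest of each list. Alternatives were other thresholds, scalings (including DESeq2 1.42.0 size factors), a pseudocount of 0.1, FPKM, list means, the second quantification, another promoter window or motif and leaving out each replicate.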

Additional observations from a re-analysis of the deposited data

Results flagged for a closer look

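Mrpl23-ps1, a processed pseudogene outside the members, had a mean of 369 expected counts over the 3 libraries, at 185.77, 546.11 and 374.65 in replicates 1, 2 and 3. It was marked because its row held counts while lying outside the analysed members. Counts in a gene that is not a member are not unusual in themselves. The other 4 processed pseudogenes named after a member had at most 2.22 counts in a library.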

How the results depend on the processing

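No paired analysis was possible because there is 1 group. Detection at 5 TPM in every library left 39 members, and detection at 1 TPM in the second quantification 61. The median member level of 5.43 TPM was 2.22 in the second quantification, 24.5 after rescaling TPM to protein-coding genes and 10.3 in FPKM. The small minus large subunit difference of -0.32 was -0.38 with a pseudocount of 0.1, -0.22 in the second quantification, -0.37 rescaled, -0.17 for list means and -0.39 by place. The mitochondria-specific minus bacterial-type difference of -0.36 was -0.41 with that pseudocount, -0.26 in the second quantification, -0.40 rescaled and -0.38 in FPKM. The cytosolic minus mitochondrial difference of 4.73 was 4.93 with that pseudocount, 4.24 in the second quantification, 4.90 rescaled and 4.45 for list means. Members called by the dispersion test ranged from 19 to 42 when a replicate was left out. It called 29 (37.2%, beside 61.9% of all genes) with library totals in place of TMM factors, 49 (62.8%, beside 51%) among genes with at least 1 count on average, and 58 (74.4%, beside 74.9%) in the second quantification. The median ratio of highest to lowest library of 1.14 was 1.18 in CPM, 1.17 rescaled and 1.52 in the second quantification, and ran from 1.08 to 1.11 without a replicate. The coding share of 87.2% was 85.0% in the second quantification and 82.8% as the mean of each member's share. The short motif GGAAG gave 56 members in place of 26. No result listed here changed sign; of 624 member p-values under alternatives, 66 lost and 35 gained the call. The cause of these shifts was not tested. Replicate 1 had the fewest counts, which limits the dispersion test.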
